A study of Mus musculus with 10 samples.

Results

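The unfolded protein response and the integrated stress response were followed through 31 genes in the livers of old mice, of 55487 genes in the deposited table. The members were chosen by gene name. They comprised 9 genes of the ATF4 arm, 14 chaperones and folding enzymes of the endoplasmic reticulum (ER), 4 genes of ER-associated degradation, and 4 encoding the sensors of the response and the transcription factor Xbp1. All 31 names were found. Ddit3 occurred under 2 Ensembl identifiers, of which one held no count in any library, so each gene was described from 1 row. All 31 passed the filter on low counts and were tested among 15894 genes.

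The livers came from mice aged 22 months, of the strain the labels write as C57B/6J, housed together and kept on normal chow. The control group, Flox, was homozygous for a floxed Arg2 allele (Arg2fl/fl). The second group, LKO, consisted of littermates in which Arg2, the gene of mitochondrial arginase 2, was deleted in hepatocytes. The sources used here do not name the Cre driver or the sex of the mice. Each group had 5 libraries of poly(A)-selected RNA from whole liver. The Flox libraries are numbered by their titles. The LKO libraries carry the column numbers 1 to 5 of the table, which cannot be tied to the LKO titles (LKO_6 to LKO_10).

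The libraries held 43331354 to 54951415 gene counts each. Levels are given as CPM, which are counts scaled to the library total. Arg2 itself had 0 to 5 counts per Flox library and 0 to 6 per LKO library, which at this depth does not check the deletion. The defining hepatocyte genes were abundant in all libraries, with Alb between 35951 and 121115 CPM. The labels do not say whether libraries and mice correspond one to one, so p-values measure the spread between these libraries only. Flox 2 and Flox 3 stood apart from the other 8 libraries: the serum amyloid gene Saa2 was at 7590 and 17513 CPM there, at 1954 CPM in Flox 4, and at 11.6 to 249 CPM in the remaining 7. Results for the members and the gene lists that rest on Flox 2 and Flox 3 are given with and without them.

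As background, unfolded proteins in the ER are sensed by 3 membrane proteins, PERK (encoded by Eif2ak3), IRE1 (Ern1) and ATF6. IRE1 splices the Xbp1 mRNA, ATF6 is cleaved to a transcription factor, and both outputs raise the transcription of chaperones and degradation factors. PERK phosphorylates the translation factor eIF2 alpha, which slows protein synthesis but favours translation of ATF4. Other kinases, which respond to amino acid shortage, viral RNA and haem deficiency, feed into the same phosphorylation and so into ATF4. Hepatocytes secrete most plasma proteins and carry an extensive rough ER. Counts per gene do not separate spliced from unspliced Xbp1, and they do not measure ATF4 protein or the phosphorylation of eIF2 alpha.

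The promoter windows of the ER genes and of the ATF4 arm differed in the sequence elements they held, and these are shown because the levels of the 2 sets are described separately. RefSeq promoter windows (GRCm38.p6, 250 bases before to 50 after the annotated start) were at hand for 28 of the 31 members, not for Atf6, Hyou1 and Manf. For 22 of the 28 windows the first 30 transcribed bases lay in a GENCODE transcript of the gene. Both strands were searched, and elements outside the windows were not looked for. The ER stress response element (ERSE, searched as CCAAT and CCACG with any 9 bases between), which is bound by ATF6 together with the CCAAT-binding factor NF-Y, occurred in 8 member windows and in 39 of all 32851 windows (0.119%). It was found for 7 of 12 chaperones and folding enzymes and for Derl3, and in none of the 9 windows of the ATF4 arm. In the sequences below, written 5′ to 3′ on the strand of the gene, capitals mark the element, which reads CGTGG to ATTGG where it lies on the other strand.

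Hspa5 (chr2:34772020-34772048, plus strand): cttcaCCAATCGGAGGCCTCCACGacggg
Calr (chr8:84847055-84847113, minus strand): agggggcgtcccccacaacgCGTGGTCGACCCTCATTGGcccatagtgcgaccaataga
Derl3 (chr10:75893222-75893280, plus strand): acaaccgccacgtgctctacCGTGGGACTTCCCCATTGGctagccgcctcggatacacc
Hsp90b1 (chr10:86705513-86705676, minus strand): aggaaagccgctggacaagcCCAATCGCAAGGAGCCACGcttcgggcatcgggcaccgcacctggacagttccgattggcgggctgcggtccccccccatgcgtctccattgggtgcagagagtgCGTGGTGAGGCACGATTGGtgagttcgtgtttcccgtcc
Canx (chr11:50325780-50325838, minus strand): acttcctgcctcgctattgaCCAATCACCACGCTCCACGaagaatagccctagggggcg
Pdia6 (chr12:17266471-17266529, plus strand): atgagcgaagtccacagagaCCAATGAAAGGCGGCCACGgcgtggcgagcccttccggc
Dnajc3 (chr14:118937807-118937865, plus strand): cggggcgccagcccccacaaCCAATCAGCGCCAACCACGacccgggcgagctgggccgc
Creld2 (chr15:88819500-88819558, plus strand): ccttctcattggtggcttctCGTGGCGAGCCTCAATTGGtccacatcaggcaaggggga

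Hsp90b1 held 2 matches, on opposite strands. The related element ERSE-II (ATTGG, any base, then CCACG) occurred in the windows of Herpud1 and Dnajb11, and in 12 of 32851 windows (0.0365%). The UPRE core (TGACGTGG) was in no member window and in 0.676% of all windows. The C/EBP-ATF response element that ATF4 binds (CARE, searched as TGATGNAA) occurred in 4 of the 9 windows of the ATF4 arm (Atf3, Chac1, Trib3 and Asns), in that of Herpud1, and in 3.97% of all windows. It was in no window of the 12 chaperones. Herpud1 was thus the member with both an ERSE-II and a CARE match, and no 2 matches in a member overlapped. Capitals below mark the CARE match, or ERSE-II where named. The matches of Trib3 and Dnajb11 lay after the start and are not shown. A match is a string of letters and not a measured binding site, and the members were chosen as known stress response genes.

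Asns (chr6:7693214-7693243, minus strand): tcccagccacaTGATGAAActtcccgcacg
Chac1 (chr2:119351029-119351076, plus strand): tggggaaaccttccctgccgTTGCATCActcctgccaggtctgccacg
Atf3 (chr1:191183416-191183463, minus strand): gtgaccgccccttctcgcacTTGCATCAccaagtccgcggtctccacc
Herpud1 (chr8:94386297-94386344, plus strand): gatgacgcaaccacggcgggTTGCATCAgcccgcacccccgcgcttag
Herpud1, ERSE-II (chr8:94386357-94386407, plus strand): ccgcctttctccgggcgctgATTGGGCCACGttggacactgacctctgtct

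The comparison of LKO with Flox asked how hepatocyte loss of Arg2 altered liver gene expression. None of the 31 stress response genes passed the test. By edgeR's quasi-likelihood test with Benjamini-Hochberg adjustment, 0 of 15894 genes (0%) were called at an adjusted p under 0.05, and the members had adjusted p from 0.652 to 0.970. One member, Ddit3, had an unadjusted p under 0.05, where 7.51% of all tested genes did (4.33% lower and 3.17% higher in LKO). It was lower in LKO. The Flox and LKO libraries overlapped for each of the 31 members, whereas 0.944% of all tested genes did not overlap. Of the members, 26 had a log2 fold change below 0 and 5 above it (median -0.23), against 51.6% and 48.4% of all tested genes (median -0.01). This majority depended on Flox 2 and Flox 3: without them, a choice made after the data were seen, 9 members were below 0 and 22 above. Flox 2 and Flox 3 were the 2 highest libraries for 18 of the 31 members, so leaving them out was bound to raise those fold changes. Without Flox 2 alone 12 members were above 0.

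**Figure D1:**
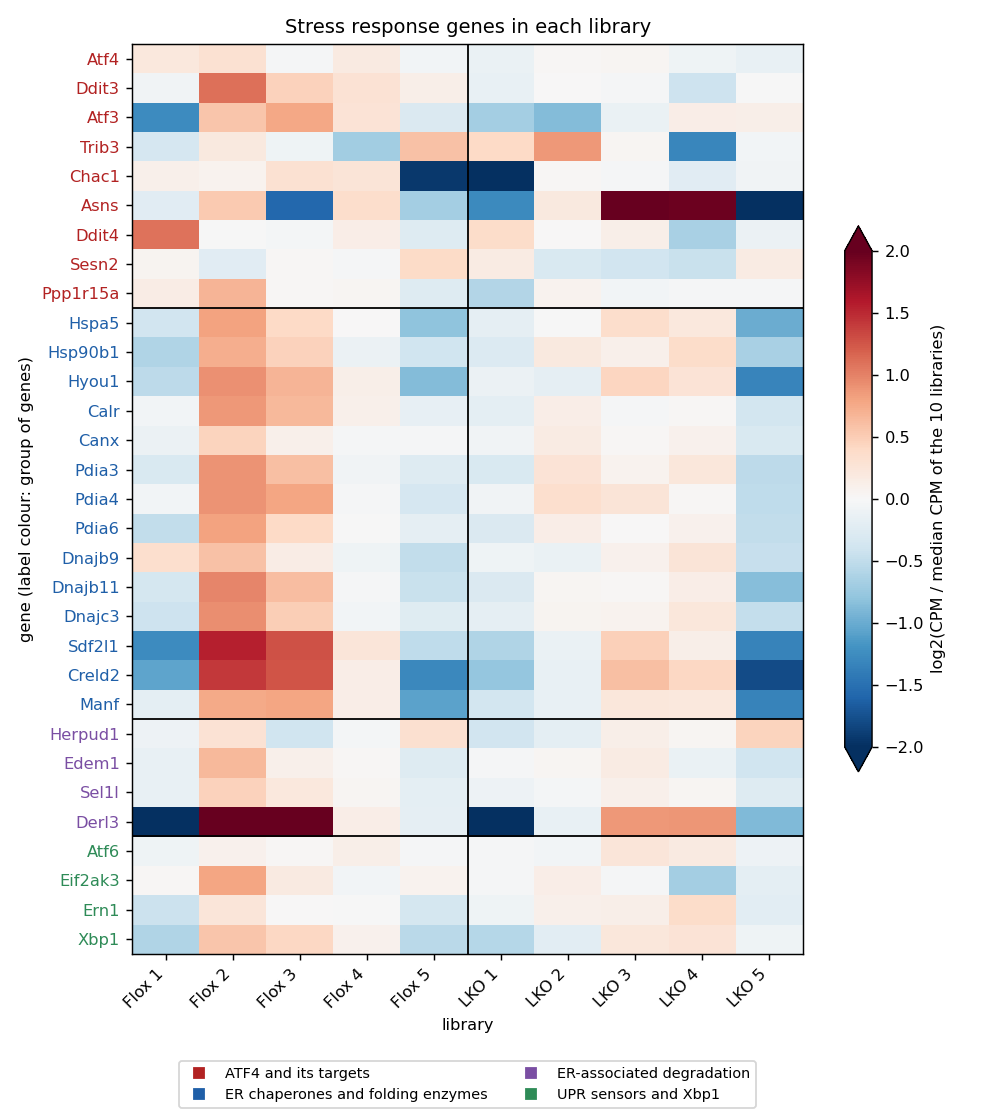
Level of the 31 stress response genes (rows, grouped by role) in the 10 libraries (columns), as log2 of the CPM over the gene's median CPM of all libraries; colours saturate at a 4-fold difference in either direction. The chaperone rows are red in Flox 2 and, less so, in Flox 3, and blue in LKO 5, whereas the rows of the ATF4 arm follow no common pattern.

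The ER chaperones and folding enzymes shared an order of libraries. Flox 2 had the highest level of all 10 libraries for 13 of these 14 genes, and Manf, at 177 CPM in Flox 3 and 173 CPM in Flox 2, was the exception. Of all tested genes 17.5% were highest in Flox 2. Flox 2 and Flox 3 were the 2 highest libraries for 12 of the 14, and for 11.7% of all tested genes. LKO 5 was the lowest of the 5 LKO libraries for 14 of 14, where it was lowest for 20.8% of all tested genes. Among Flox libraries the lowest was Flox 5 (8 genes) or Flox 1 (6 genes).

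Hspa5 encodes BiP, the Hsp70 chaperone of the ER lumen, which also holds the 3 sensors inactive. Its levels in Flox 1 to 5 were 695, 1587, 1202, 912 and 521 CPM, and in LKO 1 to 5 they were 802, 909.5, 1160.3, 1056 and 456 CPM. The 2 groups spanned much the same range, and Flox 2 lay above all other libraries. Flox averaged 983 ± 422 CPM and LKO averaged 877 ± 272 CPM (SD over 5 libraries in either group). The log2 fold change was -0.12 ± 0.31 (SE; edgeR adjusted p = 0.918). The 95% interval of the ratio of LKO to Flox ran from 0.572 to 1.47. Leaving out Flox 2 and Flox 3 gave 0.34 ± 0.29.

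Hsp90b1 encodes GRP94, the Hsp90 of the ER. It was at 392, 979, 817, 545 and 449 CPM in Flox 1 to 5, and at 489.6, 679, 637, 761 and 379 CPM in the LKO libraries. Hyou1, a large Hsp70-related protein that exchanges nucleotide on BiP, was at 176, 471, 403, 272 and 138 CPM in Flox and at 231, 223, 337, 304 and 101 CPM in LKO. For both genes Flox 2 and Flox 3 were highest and LKO 5 lowest. Their log2 fold changes were -0.07 ± 0.27 and -0.24 ± 0.39, with adjusted p of 0.946 and 0.864, and without Flox 2 and Flox 3 they were 0.39 ± 0.21 and 0.33 ± 0.38.

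The calnexin cycle, in which 2 lectins and the oxidoreductase PDIA3 fold glycoproteins, showed a range of spreads. Calr, the soluble lectin calreticulin, was at 941, 1780.4, 1537, 1045 and 877 CPM in Flox and 854, 1077, 966, 990.1 and 757 CPM in LKO. It had the smallest p of the 14 (log2 fold change -0.37 ± 0.20, unadjusted p = 0.0909, adjusted p = 0.656), and a log2 fold change of -0.01 ± 0.14 without Flox 2 and Flox 3. It was also the one chaperone that stayed below 0 there. Canx, the membrane-bound lectin calnexin, varied least of the 14, from 254 CPM in LKO 5 to 426 CPM in Flox 2 (log2 fold change -0.06 ± 0.13, adjusted p = 0.897). Pdia3 was at 407, 933, 759, 476 and 419.9 CPM in Flox and 406, 603, 526, 588 and 349 CPM in LKO.

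The other disulfide isomerases had the same order of libraries at the top. Pdia4 ranged from 229 to 537 CPM in Flox and from 203 to 364 CPM in LKO, and Pdia6 from 227 to 556 and from 228 to 352 CPM. The log2 fold changes of Pdia3, Pdia4 and Pdia6 were -0.24 ± 0.25, -0.27 ± 0.25 and -0.22 ± 0.22 (adjusted p from 0.766 to 0.786). Leaving out Flox 2 and Flox 3 gave 0.22, 0.20 and 0.16.

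The J-domain co-chaperones of BiP had mean levels that differed by less than the SD of the Flox group. Dnajb11 (ERdj3) was at 92.1, 231, 182, 116 and 86.7 CPM in Flox and 96.6, 121, 119.5, 129 and 65.5 CPM in LKO. Dnajc3, known as p58IPK, ranged from 187 to 473 CPM in Flox and from 179 to 292 CPM in LKO. Dnajb9 (ERdj4), which recruits BiP to IRE1, was at 48.3, 57.8, 42.4, 36.1 and 27.1 CPM in Flox and 36.0, 34.9, 40.6, 45.6 and 27.9 CPM in LKO. It was one of the 2 chaperones whose 2 highest libraries were not Flox 2 and Flox 3, the other being Canx. Log2 fold changes were -0.37 ± 0.29, -0.23 ± 0.24 and -0.16 ± 0.20 for Dnajb11, Dnajc3 and Dnajb9 (adjusted p = 0.721, 0.787 and 0.823).

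The small ER proteins Creld2 and Sdf2l1 had the widest spread of the 14. Creld2, an ER protein with EGF-like domains that is induced by ER stress, was at 30.1, 166, 149.9, 68.8 and 25.6 CPM in Flox and 36.6, 56.1, 94.3, 83.4 and 18.1 CPM in LKO. The highest library thus exceeded the lowest by 9.14-fold. Sdf2l1, a partner of Dnajb11, was at 16.5, 115, 95.3, 46.6 and 27.8 CPM in Flox and 26.0, 36.0, 55.1, 42.9 and 15.6 CPM in LKO, a 7.38-fold range. Within the LKO group alone Creld2 spanned 5.20-fold and Sdf2l1 3.52-fold. Manf, a secreted ER stress-induced factor, was at 89.7, 173, 177, 113 and 48.8 CPM in Flox and 79.4, 92.5, 119.6, 119 and 40.8 CPM in LKO.

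For these genes the difference between the groups was small beside that spread. The log2 fold changes were -0.57 ± 0.62 for Creld2, -0.73 ± 0.54 for Sdf2l1 and -0.37 ± 0.38 for Manf (adjusted p = 0.799, 0.709 and 0.780). The 95% interval for Creld2 allowed ratios of LKO to Flox from 0.257 to 1.78. Without Flox 2 and Flox 3 the log2 fold changes were 0.52 ± 0.59, 0.26 ± 0.45 and 0.14 ± 0.39. The biological coefficient of variation that edgeR fitted placed Creld2 and Sdf2l1 at the 96.9th and 94.9th percentile of all tested genes, and Canx at the 31.6th.

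All 14 chaperones and folding enzymes had log2 fold changes below 0 (-0.73 to -0.06, median -0.24), beside 51.6% of all tested genes. Leaving out Flox 2 and Flox 3 turned 13 of the 14 above 0 (median 0.21). They were the 2 highest libraries for 12 of the 14, so a rise was fixed by that choice, though not its size. The median was -0.02 without Flox 2, -0.16 without Flox 3 and -0.13 without LKO 5. With limma-voom and sample quality weights, 4 of the 14 were above 0 (median -0.04).

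**Figure D2:**
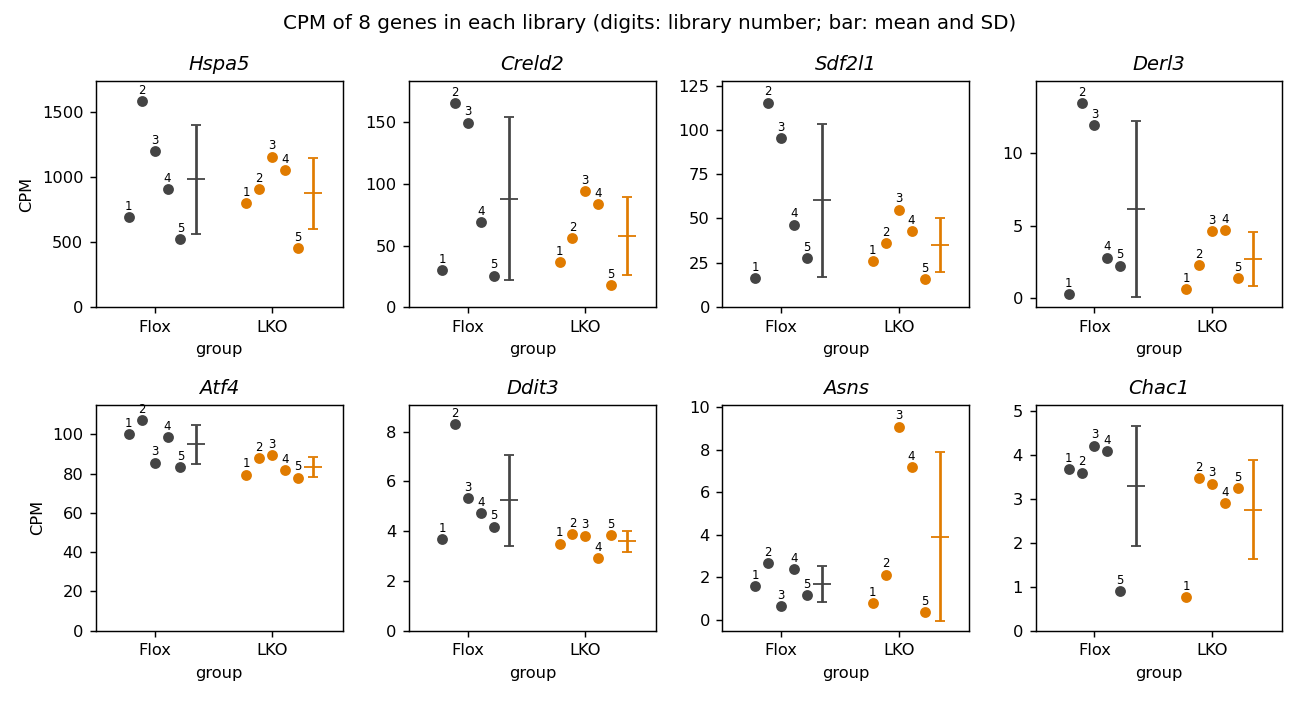
CPM of 8 genes in the 5 Flox and 5 LKO libraries (points, with the library number), beside the group mean and SD. Hspa5, Creld2, Sdf2l1 and Derl3 are highest in Flox 2 and Flox 3, Asns in LKO 3 and LKO 4, and Chac1 is lowest in Flox 5 and LKO 1.

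Some properties of the libraries are given beside the chaperone levels. The mean log2 CPM of the 14 genes was 7.43, 8.64, 8.36, 7.73 and 7.23 in Flox 1 to 5 and 7.55, 7.80, 7.98, 7.98 and 6.97 in LKO 1 to 5. That of 16 acute phase proteins was 8.67, 11.51, 12.34, 10.63 and 8.15 in Flox and 7.98, 9.78, 9.21, 8.83 and 8.43 in LKO, so Flox 2 and Flox 3 were highest for both. The orders were not the same: Flox 4 was above every LKO library for the acute phase proteins but below LKO 2, LKO 3 and LKO 4 for the chaperones. All 16 acute phase genes had log2 fold changes below 0 (median -1.47), led by the protease inhibitor Serpina3n (1240.2 ± 1071 against 352 ± 63.1 CPM) and Saa2, with an adjusted p of 0.652 for both. By edgeR 12 of the 16 had an unadjusted p under 0.05, beside 7.51% of all tested genes and 0 of the 14 chaperones. Of 12 clock genes 8 were above 0 (median 0.44), and the repressors Nr1d1 (59.8 ± 42.6 against 88.3 ± 6.63 CPM) and Per2 (10.9 ± 6.28 against 15.8 ± 7.57 CPM) had adjusted p of 0.674 and 0.700. Without Flox 2 and Flox 3 the acute phase median was -0.38, with 15 of 16 genes below 0, and the clock median was 0.01, with 6 of 12 above 0. The log2 fold changes of Serpina3n and Saa2 were -0.58 and -2.68 there, against -1.77 and -5.70 with all libraries. Those of Nr1d1 and Per2 were 0.25 and 0.23, against 0.61 and 0.59. The clock output gene Dbp, whose mRNA cycles over the day, was at 0.771, 1.71, 2.003, 49.3 and 93.0 CPM in Flox and 3.01, 35.3, 40.6, 33.9 and 109.9 CPM in LKO. Flox 5 and LKO 5, 2 of the libraries with the lowest chaperone means, had the highest Dbp. Low Dbp went with either: Flox 1 and LKO 1 had low chaperone means, whereas Flox 2 and Flox 3 had the highest. The hour of collection was not among the labels, and the part of either property in the chaperone levels was not tested.

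**Figure D3:**
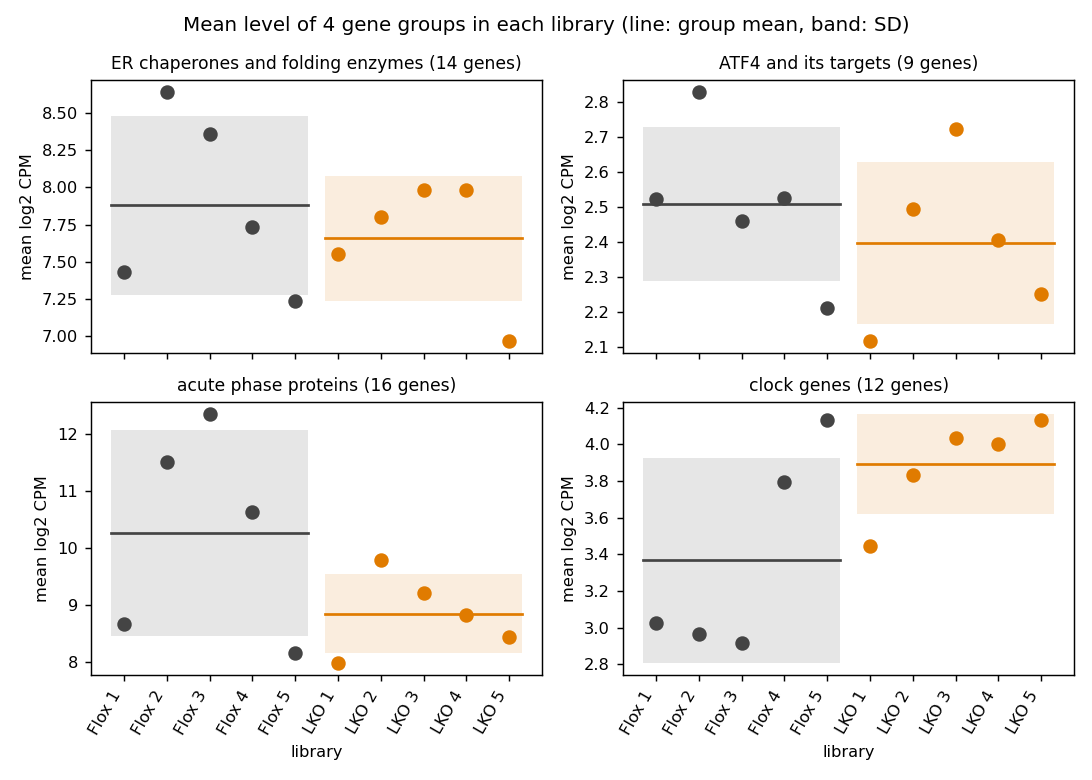
Mean log2 CPM of the 14 chaperones and folding enzymes, the 9 genes of the ATF4 arm, 16 acute phase proteins and 12 clock genes in each library; lines are group means and bands the SD. Flox 2 and Flox 3 are the 2 highest libraries for the chaperones (8.64 and 8.36) and for the acute phase proteins (11.51 and 12.34). The highest ATF4 mean is also that of Flox 2 (2.83), and the second highest is that of LKO 3 (2.72).

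Further values of the same libraries stood beside these levels. The mitochondrially encoded transcripts took 3.12% and 3.93% of counts in Flox 2 and Flox 3, and 4.64% to 8.38% in the other 8. The summed level of 5 hepatocyte markers was 77070 CPM in Flox 2 and 51488 CPM in Flox 3, against 106346 to 150159 CPM elsewhere. Most of this sum was the single gene Alb (58035 CPM in Flox 2 and 35951 CPM in Flox 3). All 6 T and NK cell markers had log2 fold changes below 0, with sums of 3.06 to 9.28 CPM in Flox and 1.47 to 3.11 CPM in LKO, as did all 6 Kupffer cell markers (62.3 to 444 and 39.8 to 395 CPM). All 4 erythroid markers had log2 fold changes above 0, and their sums did not overlap (177 to 308 CPM in Flox and 347 to 646 CPM in LKO). In whole liver, fewer cells of a type and less RNA per cell cannot be told apart, and the part of these cells in the results was not tested.

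Exocrine pancreas and plasma cells are secretory cells rich in several of the same chaperones, and their markers are given for that reason. Of 11 pancreas markers, Prss2, Try4 and Amy2a5 had no count in any library, and Cpa1 reached 0.0205 CPM, in Flox 2. The sum of the 11 was 10.3 to 24.8 CPM in Flox and 15.6 to 21.1 CPM in LKO, nearly all of it from Cela1 (10.2 to 24.6 CPM). Of 6 plasma cell markers, Mzb1 had no count in Flox 1 to 3 and at most 0.205 CPM elsewhere, and Tnfrsf17 reached 0.170 CPM. The immunoglobulin genes were detected in each library, with Igkc at 34.7 to 175 CPM and Ighm, which B cells express too, at 17.0 to 173 CPM. The 6 plasma cell markers summed to 87.0 CPM in Flox 2 and 60.3 CPM in Flox 3, the lowest of all libraries, and to 101 to 328 CPM in the other 8. In Flox 2 the low sum came from Ighm (17.0 CPM). Its Igkc (63.4 CPM) was above that of Flox 1, Flox 3, LKO 1 and LKO 4 and below that of the other libraries.

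The genes of ER-associated degradation, which extract misfolded proteins to the proteasome, split into 3 genes of moderate spread and 1 far more variable one. Edem1, a lectin that hands over glycoproteins, ranged from 139.9 to 261 CPM in Flox and from 126 to 188 CPM in LKO (log2 fold change -0.13 ± 0.17). Sel1l, the partner of the ubiquitin ligase HRD1, ranged from 138 to 218 and from 133 to 170.2 CPM (-0.10 ± 0.13). Both were highest in Flox 2. Herpud1, which organises the ligase complex, was at 241, 315, 198, 253 and 325 CPM in Flox and at 198, 226, 280.1, 265 and 354 CPM in LKO (0.03 ± 0.17). Its highest library was LKO 5, where the chaperones were lowest, and its lowest Flox library was Flox 3. Adjusted p for the 3 genes were 0.834 to 0.970.

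Derl3, a derlin of the retrotranslocation channel, was the scarcest of the 4. It was at 0.263, 13.4, 11.9, 2.78 and 2.24 CPM in Flox and 0.619, 2.28, 4.60, 4.66 and 1.37 CPM in LKO, from 14 counts in Flox 1 to 654 in Flox 2. The 51.0-fold range was the widest among the 31 members, and its coefficient of variation lay at the 99.3rd percentile of all tested genes. The means were 6.13 ± 6.08 and 2.71 ± 1.85 CPM (SD, n = 5 each), with a log2 fold change of -1.13 ± 0.89 (adjusted p = 0.730). It was 0.66 ± 0.83 without Flox 2 and Flox 3.

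Of the sensors, Atf6 and Ern1 varied less between libraries than Eif2ak3. Atf6 was at 67.1, 75.3, 72.0, 76.9 and 69.8 CPM in Flox and 70.1, 68.2, 83.8, 80.4 and 66.2 CPM in LKO, with the lowest coefficient of variation of the 31 members (5.90th percentile). Its log2 fold change was 0.07 ± 0.09, and the 95% interval of the ratio of LKO to Flox was 0.916 to 1.20 (adjusted p = 0.832). Ern1 (IRE1) was at 34.3, 54.9, 46.6, 45.9 and 36.3 CPM in Flox and 43.6, 49.3, 50.4, 59.8 and 39.8 CPM in LKO (0.20 ± 0.14, adjusted p = 0.700). Without Flox 2 and Flox 3 its log2 fold change was 0.36 ± 0.14 (unadjusted p = 0.0282, adjusted p = 0.999), the one member with an unadjusted p under 0.05 there, beside 3.12% of all genes.

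Eif2ak3 (PERK) was at 13.2, 22.6, 14.6, 12.5 and 13.6 CPM in Flox and 12.8, 14.2, 12.8, 8.12 and 11.4 CPM in LKO. Flox 2 was again highest, and the remaining libraries of the 2 groups overlapped (log2 fold change -0.33 ± 0.18, adjusted p = 0.658, and -0.11 ± 0.16 without Flox 2 and Flox 3). Xbp1, the target of IRE1, was at 126, 283, 254, 203 and 132 CPM in Flox and 129, 166, 225, 232 and 180.1 CPM in LKO. It was highest in Flox 2 and Flox 3, as the chaperones were, but its LKO 5 value was not the lowest of its group (-0.06 ± 0.24, adjusted p = 0.950, and 0.31 ± 0.21 without the 2 libraries).

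The ATF4 arm had no order of libraries shared by most of its genes. Flox 2 was highest for 3 of its 9 genes (33.3%), beside 17.5% of all tested genes. Flox 2 and Flox 3 were the 2 highest for 2 of 9 (22.2%), beside 11.7% of all tested genes. Atf4, the transcription factor at its head, was steady, at 100.0, 107, 85.6, 98.4 and 83.4 CPM in Flox and 79.5, 87.9, 89.5, 81.9 and 77.9 CPM in LKO. The means were 94.9 ± 10.1 and 83.4 ± 5.13 CPM (SD, n = 5 each; log2 fold change -0.15 ± 0.10, adjusted p = 0.674). Leaving out Flox 2 and Flox 3 left it at -0.14 ± 0.10. Since ATF4 is controlled largely through translation, its mRNA is only part of its output.

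Ddit3 encodes CHOP, the transcription factor associated with cell death under lasting ER stress. It was at 3.69, 8.30, 5.32, 4.71 and 4.18 CPM in Flox and 3.50, 3.89, 3.82, 2.91 and 3.84 CPM in LKO. Of the Flox libraries, 4 of 5 lay above all LKO libraries, and Flox 1 lay among them. The means were 5.24 ± 1.82 and 3.59 ± 0.413 CPM, a log2 fold change of -0.50 ± 0.21 with an unadjusted p of 0.0309 and an adjusted p of 0.652. It was -0.19 ± 0.16 without Flox 2 and Flox 3. Ppp1r15a (GADD34), which directs the dephosphorylation of eIF2 alpha, was at 11.5, 16.6, 10.6, 10.7 and 8.74 CPM in Flox and 6.91, 10.9, 10.01, 10.2 and 10.2 CPM in LKO (-0.23 ± 0.17, adjusted p = 0.708). Its log2 fold change was -0.070 without Flox 2 and Flox 3, and -0.072 without Flox 2 alone.

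Asns, the asparagine synthetase that is a classical target of the amino acid branch, differed most among the LKO libraries. It was at 1.58, 2.67, 0.623, 2.37 and 1.16 CPM in Flox and 0.768, 2.13, 9.09, 7.20 and 0.371 CPM in LKO. LKO 3 and LKO 4 stood above all other libraries, with 435 and 312 counts, and LKO 5 had the lowest value, from 20 counts. The means were 1.68 ± 0.844 and 3.91 ± 3.98 CPM, and the log2 fold change of 1.25 ± 0.80 was the largest positive one among the members (adjusted p = 0.680). It was 0.67 without LKO 3, and the 95% interval of the ratio with all libraries ran from 0.685 to 8.29. LKO 3 and LKO 4 also had the highest Derl3, Creld2 and Hspa5 of the LKO group. This did not hold for all ER genes: of the 14 chaperones, 5 were highest in LKO 2 within that group, 5 in LKO 3 and 4 in LKO 4.

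Trib3 and Chac1, a pseudokinase and a glutathione-degrading enzyme downstream of ATF4, did not share that pattern. Trib3 was at 3.70, 5.36, 4.43, 2.89 and 7.06 CPM in Flox and 6.15, 8.55, 4.83, 1.89 and 4.53 CPM in LKO, so LKO 4 was its lowest library (0.18 ± 0.35, adjusted p = 0.892). Chac1 was at 3.67, 3.60, 4.21, 4.08 and 0.896 CPM in Flox and 0.768, 3.47, 3.34, 2.91 and 3.25 CPM in LKO. In each group 1 library, Flox 5 or LKO 1, was far below the other 4, which differed little (-0.23 ± 0.44, adjusted p = 0.894, and -0.048 ± 0.56 without Flox 2 and Flox 3).

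The remaining 3 genes of the arm respond to several kinds of stress. Atf3, a repressor and activator of stress genes, ranged from 0.489 to 1.98 CPM in Flox and from 0.638 to 1.27 CPM in LKO (-0.34 ± 0.35). Ddit4 (REDD1), an inhibitor of mTORC1, was at 14.9 CPM in Flox 1 and at 5.86 to 7.61 CPM in the other Flox libraries, and at 4.43 to 8.96 CPM in LKO (-0.26 ± 0.28). Its log2 fold change was 0.07 without Flox 1. Sesn2, another restraint on mTORC1, ranged from 5.42 to 8.21 CPM in Flox and from 4.64 to 7.11 CPM in LKO (-0.15 ± 0.17). Adjusted p for the 3 were 0.781 to 0.803. Leaving out Flox 2 and Flox 3 gave -0.44 ± 0.33 for Ddit4 and -0.24 ± 0.19 for Sesn2.

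Of the 9 genes, 7 had log2 fold changes below 0 (median -0.23). Without Flox 2 and Flox 3, 6 of 9 were below 0 (median -0.07), whereas 1 of the 14 chaperones was. Those libraries were the 2 highest for 12 of the 14 chaperones and for 2 of the 9, so leaving them out was bound to raise more of the chaperones. The difference between the 2 groups of genes was not tested.

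**Figure D4:**
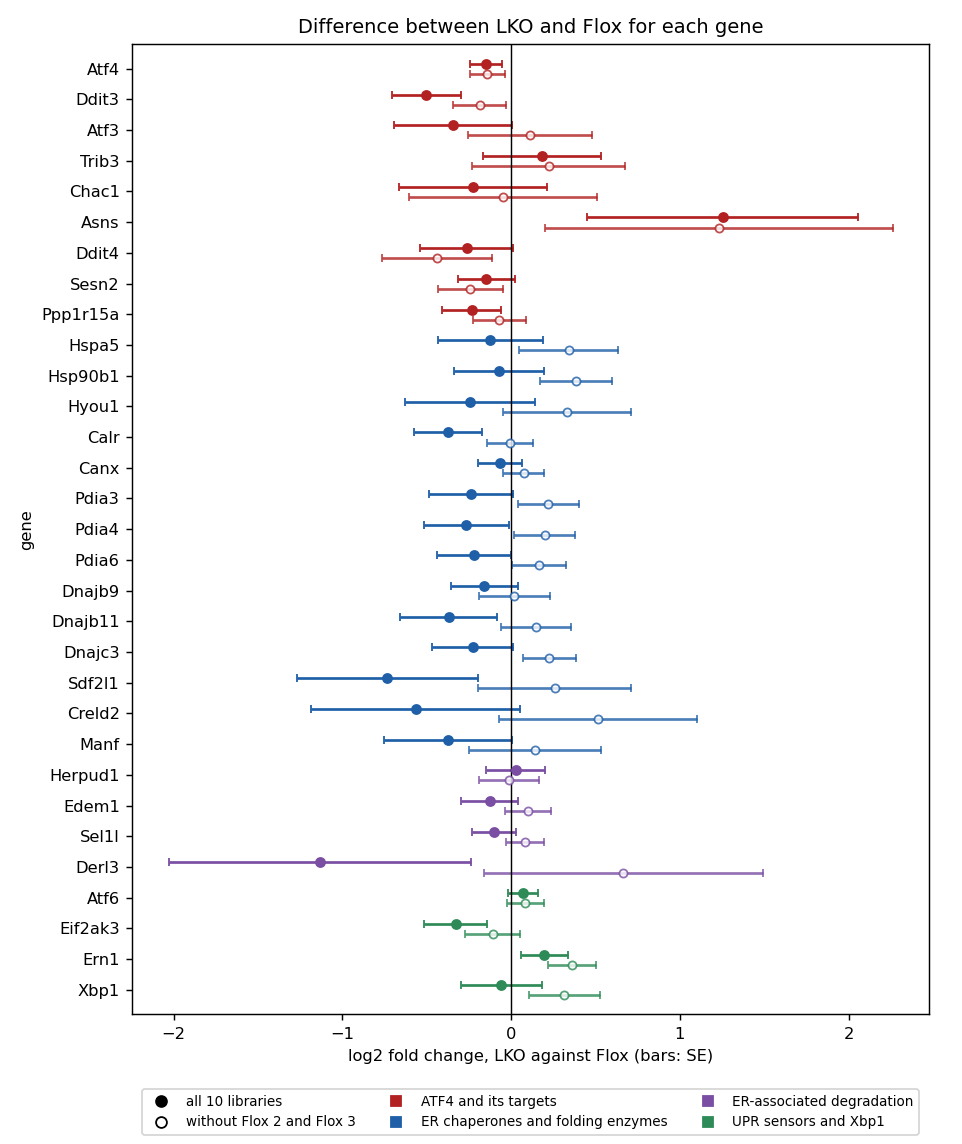
Log2 fold change of LKO against Flox for each of the 31 genes (x axis; bars are SE) with all 10 libraries (filled) and without Flox 2 and Flox 3 (open, a choice made after the data were seen). The filled points of all 14 chaperones lie below 0, and the open points of 13 of them lie above it.

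Levels were compared between genes per length. Dividing CPM by the merged exon length of GENCODE M21 in kilobases, Calr was highest in Flox (429 CPM per kb), followed by Hspa5 (233), Pdia3 (191), Hsp90b1 (158) and Pdia4 (152). Atf4 was at 40.2 CPM per kb, and Ern1 and Eif2ak3 at 5.33 and 2.54. Asns (0.614) and Atf3 (0.606) were the lowest. In LKO the first 5 had the same order, at 322, 207, 158, 146 and 123 CPM per kb. In Flox, neighbours in this order from Hspa5 to Pdia4 differed by less than the SD of either gene.

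Wider lists of the same pathways likewise held no gene past the test. Of 27 other genes of ER folding and glycoprotein quality control, 7 were above 0 and 20 below (median -0.05), and 14 were highest in Flox 2. Txndc11, a thioredoxin-domain protein of the ER, had the smallest p (31.02 ± 6.66 against 24.1 ± 3.40 CPM), followed by Cnpy3, a GRP94 co-chaperone (49.8 ± 8.04 against 41.7 ± 1.41 CPM; adjusted p = 0.652 for both). Of 22 genes of translocation into the ER, 4 were above 0 and 18 below (median -0.07), with 14 highest in Flox 2, among them the translocon subunit Sec61g (40.3, 72.9, 68.3, 52.1 and 41.0 CPM in Flox and 40.7, 52.0, 45.4, 38.7 and 39.5 CPM in LKO). Spcs1, of the signal peptidase, was at 42.6 ± 4.09 against 37.5 ± 2.35 CPM. Without Flox 2 and Flox 3, 19 of the 27 folding genes were above 0 (median 0.06), as were 16 of the 22 translocation genes (median 0.08). The log2 fold changes of Txndc11 and Cnpy3 were -0.16 and -0.05 there, against -0.32 and -0.22 with all libraries. Those of Sec61g and Spcs1 were -0.005 and -0.10, against -0.30 and -0.14.

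The wider degradation list had 5 of 22 tested genes above 0 and 17 below (median -0.05; Hm13 was not matched by name), and 12 of 22 above 0 without Flox 2 and Flox 3 (median 0.03). Aup1, which recruits ubiquitin-conjugating enzymes to the ER, was at 131 ± 7.90 against 111 ± 7.08 CPM (unadjusted p = 0.0418, adjusted p = 0.652) with no overlap between the groups. The groups did not overlap for 2 of the 22 genes, beside 0.944% of all tested genes. Rnf139, an ER ubiquitin ligase, was at 14.0 ± 1.09 against 15.2 ± 1.30 CPM. Log2 fold changes of Aup1 and Rnf139 were -0.20 and 0.16, and -0.14 and 0.11 without Flox 2 and Flox 3. Among 10 tested transducers other than the 3 sensors, 3 were above 0 and 7 below (median -0.23, and -0.01 without Flox 2 and Flox 3). Creb3, an ER-anchored transcription factor, was at 34.9 ± 6.11 against 27.9 ± 2.20 CPM, and Traf2, an adaptor of IRE1, at 10.9 ± 2.87 against 8.66 ± 0.966 CPM (adjusted p = 0.652 and 0.656). Their log2 fold changes of -0.28 and -0.29 became -0.12 and -0.03 without Flox 2 and Flox 3.

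Other targets of ATF4 were divided evenly, with 16 of 32 tested above 0 and 16 below (median -0.01), and 17 above 0 without Flox 2 and Flox 3. Jdp2, a bZIP repressor, was at 1.44 ± 0.480 against 0.795 ± 0.115 CPM (unadjusted p = 0.0102), and Slc7a5, the large neutral amino acid transporter, at 2.29 ± 0.634 against 1.34 ± 0.478 CPM (unadjusted p = 0.0189; adjusted p = 0.652 for both). The log2 fold changes of Jdp2 and Slc7a5 were -0.82 and -0.73, and -0.70 and -0.63 without Flox 2 and Flox 3. Slc7a11 and Stc2 did not pass the count filter. Of 14 genes of the other eIF2 alpha kinases and the eIF2 cycle, 6 were above 0 and 8 below (median -0.02), and 9 were above 0 without Flox 2 and Flox 3. Eif2b4, a subunit of the exchange factor that phosphorylated eIF2 alpha inhibits, was at 34.2 ± 3.62 against 28.6 ± 2.10 CPM with no overlap (unadjusted p = 0.0367, adjusted p = 0.652). The gap was narrow, from 30.1 CPM in LKO 1 to 30.6 CPM in Flox 5. The groups did not overlap for 1 of the 14 genes, beside 0.944% of all tested genes. Ppp1r15b (CReP), the constitutive partner of the eIF2 alpha phosphatase, was at 72.0 ± 9.17 against 79.7 ± 9.16 CPM. Log2 fold changes of Eif2b4 and Ppp1r15b were -0.22 and 0.19, and -0.11 and 0.14 without Flox 2 and Flox 3.

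Mitochondrial chaperones and proteases, included because arginase 2 is mitochondrial, had 6 of 11 genes above 0 and 5 below (median 0.01), and 9 of 11 above 0 without Flox 2 and Flox 3. Clpp, the matrix protease, was at 61.6, 65.7, 70.7, 59.1 and 58.7 CPM in Flox and 58.3, 50.9, 54.4, 47.0 and 58.3 CPM in LKO. The groups did not overlap, which held for 1 of the 11 genes and for 0.944% of all tested genes. Clpp did not pass the test (unadjusted p = 0.0627, adjusted p = 0.652). Afg3l2, an inner membrane protease, was at 69.5 ± 7.90 against 77.6 ± 4.70 CPM. Log2 fold changes of Clpp and Afg3l2 were -0.19 and 0.20, and -0.12 and 0.15 without Flox 2 and Flox 3.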

How the data were processed

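The authors deposited 1 table of raw read counts, whole numbers for each Ensembl gene with no normalization. STAR 2.5.1a, featureCounts 1.4.6-p5 (with Subread), bcl2fastq and the build GRCm38 are listed, per the submitters' processing notes. How strand and multi-mapping reads were handled was not stated there, so overlapping genes cannot be separated. Of 55774 lines, 287 repeats of an identifier with identical counts were dropped.

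Genes passing filterByExpr were scaled by TMM and tested with edgeR 4.0.16 (quasi-likelihood, robust; R 4.3.3), with P-values adjusted over 15894 genes by Benjamini-Hochberg (threshold 0.05). All tests were two-sided. The SE came from the F statistic. Printed CPM use library totals, and list means use log2 CPM after TMM with a prior count of 2. DESeq2 1.42.0 and limma-voom (limma 3.58.1), 2 other scalings, no filter and leaving out each library were alternatives. The fits were tested on simulated counts. The members and lists were chosen with earlier results of these data known. All members were named, and in each wider pathway list the 2 genes with the smallest p where none passed. Gene lengths are from GENCODE M21 (GRCm38) and promoters from RefSeq.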

Additional observations from a re-analysis of the deposited data

Results flagged for a closer look

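Within a group of 5 libraries, 1 library stood far from the other 4 (its gap to the nearest, as a share of the group's range, exceeded Dixon's 95% critical value) for 5 of 62 gene and group combinations, where chance gives about 1 in 20, or 3.1. Chac1 was low in Flox 5 (0.896 CPM) and in LKO 1 (0.768 CPM). Ppp1r15a was also low in LKO 1 (6.91 CPM). Ddit4 was high in Flox 1 (14.9 CPM), and Eif2ak3 was high in Flox 2 (22.6 CPM). No chaperone was among them. The rule looks for 1 stray library and can miss a pair that is high together. Flox 2 and Flox 3 were the 2 highest libraries for 12 of the 14 chaperones.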

How the results depend on the processing

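No paired analysis was run, because nothing in the labels pairs the libraries. The titles number the Flox libraries 1 to 5 and the LKO libraries 6 to 10, and the LKO columns cannot be tied to titles. The LKO mice were littermates, and any litter shared between libraries was thus not modelled. No member with an adjusted p passed the threshold in any of 16 alternatives (smallest adjusted p = 0.369). DESeq2 gave no adjusted p for 7 members (Asns, Atf3, Chac1, Ddit3, Derl3, Sesn2 and Trib3), which were thus not tested there. In sign, 44 of 496 member values changed. DESeq2 called 11 genes of 8184 with an adjusted p, none of them among the 24 members that had one. Members above 0 numbered 10 with limma-voom and 22 without Flox 2 and Flox 3; leaving out 1 library gave 4 to 12. With library totals Herpud1 was at -0.011. With limma-voom, Hsp90b1 was at 0.11, Hspa5 at 0.10, Xbp1 at 0.067, and Canx (0.0043) and Hyou1 (0.0024) near 0.

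Without Flox 2 and Flox 3 the sign changed for 19 members: Derl3 (0.66), Creld2 (0.52), Hsp90b1 (0.39), Hspa5 (0.34), Hyou1 (0.33), Xbp1 (0.31), Sdf2l1 (0.26), Dnajc3 (0.23), Pdia3 (0.22), Pdia4 (0.20), Pdia6 (0.16), Dnajb11 (0.15), Manf (0.14), Atf3 (0.11), Edem1 (0.10), Sel1l (0.084), Canx (0.074), Dnajb9 (0.020) and Herpud1 (-0.014). The cause was not tested.

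Leaving out 1 library gave log2 fold changes that crossed 0 for Hspa5 (-0.29 to 0.12), Hsp90b1 (-0.20 to 0.14), Canx (-0.10 to 0.038), Dnajc3 (-0.34 to 0.016), Xbp1 (-0.18 to 0.10), Edem1 (-0.21 to 0.045), Sel1l (-0.17 to 0.0094), Herpud1 (-0.10 to 0.11), Ddit4 (-0.39 to 0.074), Chac1 (-0.47 to 0.0077) and Trib3 (-0.054 to 0.39). Counting error weighs most on the scarce genes: the lowest library held 14 counts for Derl3, 20 for Asns and 26 for Atf3, which had the fewest counts of all members (564 in total).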
